A study of Homo sapiens with 5 samples.

Results

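The genes described are 10 genes of G2 and mitosis, CCNB1, CDK1, CKS2, PLK1, AURKA, CDC20, UBE2C, TOP2A, CENPF and KIF20A. They were chosen by symbol, and all 10 were found among the 4202 genes of the deposited table. Total RNA was sequenced from MDA-MB-231 cells, a mesenchymal-like triple-negative breast cancer line. After 4 h there was 1 library from cells given CGI-1746, 1 from cells given LU-102, 1 from cells given both (the combination), 1 from cells given bortezomib and 1 from mock-treated cells. CGI-1746 is a BTK inhibitor that the series' title also names as an allosteric inhibitor of the proteasome, LU-102 is known as an inhibitor of the trypsin-like sites of the proteasome, and bortezomib is a clinical proteasome inhibitor given here as a control for the effects of proteasome inhibition. The sources used here give no dose, no vehicle for the mock cells and no synchronization of the cultures. With a single library for each condition there is no replicate check on any difference, and every value describes these libraries alone.

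These genes belong to a wave of transcription that builds up as cells leave S phase and peaks as they enter mitosis. Cyclin B with CDK1 drives entry, the Polo and Aurora kinases build the spindle, and the anaphase promoting complex (APC/C) ends mitosis by marking cyclin B and securin for the proteasome. Their transcription is held down early in the cell cycle by the DREAM complex at an element called CHR, and switched on later by MYBL2 and FOXM1 together with NF-Y, which binds CCAAT boxes. In bulk RNA fewer cells in G2 and mitosis and less RNA per cell cannot be told apart.

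The promoters of 8 of the 10 genes were read from RefSeq on GRCh38.p14, as 250 bases before and 50 after the annotated start, and are shown because CHR and CCAAT boxes are what this group is known to share. CHR was searched as TTTGAA or TTCGAA and the CCAAT box as CCAAT, each on both strands, and no match overlapped another. All 8 genes had a CCAAT box in each promoter read, which 34.6% of all 35116 promoters of the table held, and 7 of the 8 genes had 2 or more in 1 promoter, against 10.8% of promoters. A CHR was found in 6 of the 8, all as TTTGAA, against 16.4% of promoters with either form. Shown are KIF20A, with the lowest level relative to mock under bortezomib, CCNB1 and CDC20, and CDK1 with the highest such level among those read. Capitals mark the matches on either strand, so that ATTGG is a CCAAT box and TTCAAA a CHR on the other strand.
KIF20A, chr5:138178862-138179161, plus strand: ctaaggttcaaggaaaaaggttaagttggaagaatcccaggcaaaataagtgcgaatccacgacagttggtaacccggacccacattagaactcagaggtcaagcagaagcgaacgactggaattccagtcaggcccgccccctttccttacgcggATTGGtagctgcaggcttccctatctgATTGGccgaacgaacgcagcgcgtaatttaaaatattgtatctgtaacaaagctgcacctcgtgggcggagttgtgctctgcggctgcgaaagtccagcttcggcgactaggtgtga
CCNB1, chr5:69166900-69167199, plus strand: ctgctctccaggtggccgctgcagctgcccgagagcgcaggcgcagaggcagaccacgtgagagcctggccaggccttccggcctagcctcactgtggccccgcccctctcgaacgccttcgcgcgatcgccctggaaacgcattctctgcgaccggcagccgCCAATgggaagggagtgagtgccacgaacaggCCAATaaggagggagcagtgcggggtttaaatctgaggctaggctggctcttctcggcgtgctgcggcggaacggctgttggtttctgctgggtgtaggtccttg
CDC20, chr1:43358731-43359030, plus strand: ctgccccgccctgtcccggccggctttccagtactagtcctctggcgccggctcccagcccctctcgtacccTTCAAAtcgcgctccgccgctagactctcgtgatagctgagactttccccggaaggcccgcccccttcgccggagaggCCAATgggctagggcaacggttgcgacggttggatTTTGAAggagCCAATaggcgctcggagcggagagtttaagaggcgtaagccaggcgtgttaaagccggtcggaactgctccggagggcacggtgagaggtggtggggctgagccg
CDK1 (the downstream of its 2 starts), chr10:60778228-60778527, plus strand: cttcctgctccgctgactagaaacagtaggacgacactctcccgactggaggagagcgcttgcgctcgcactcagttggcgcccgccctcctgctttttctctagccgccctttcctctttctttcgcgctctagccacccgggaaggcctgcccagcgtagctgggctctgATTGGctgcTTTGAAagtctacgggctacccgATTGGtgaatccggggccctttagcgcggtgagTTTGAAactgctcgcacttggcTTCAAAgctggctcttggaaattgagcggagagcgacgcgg
KIF20A and CCNB1 each held 2 CCAAT boxes and neither spelling of CHR. Other spellings of CHR were not searched, so this does not show that either promoter lacks one. In CDC20 a CHR 65 bases before the start lay between CCAAT boxes at 100 and 55 bases, and another CHR lay at 178 bases. The downstream CDK1 promoter held CCAAT boxes 78 and 46 bases before its start and 3 CHR spellings. A match of letters is not evidence of binding.

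**Figure D1:**
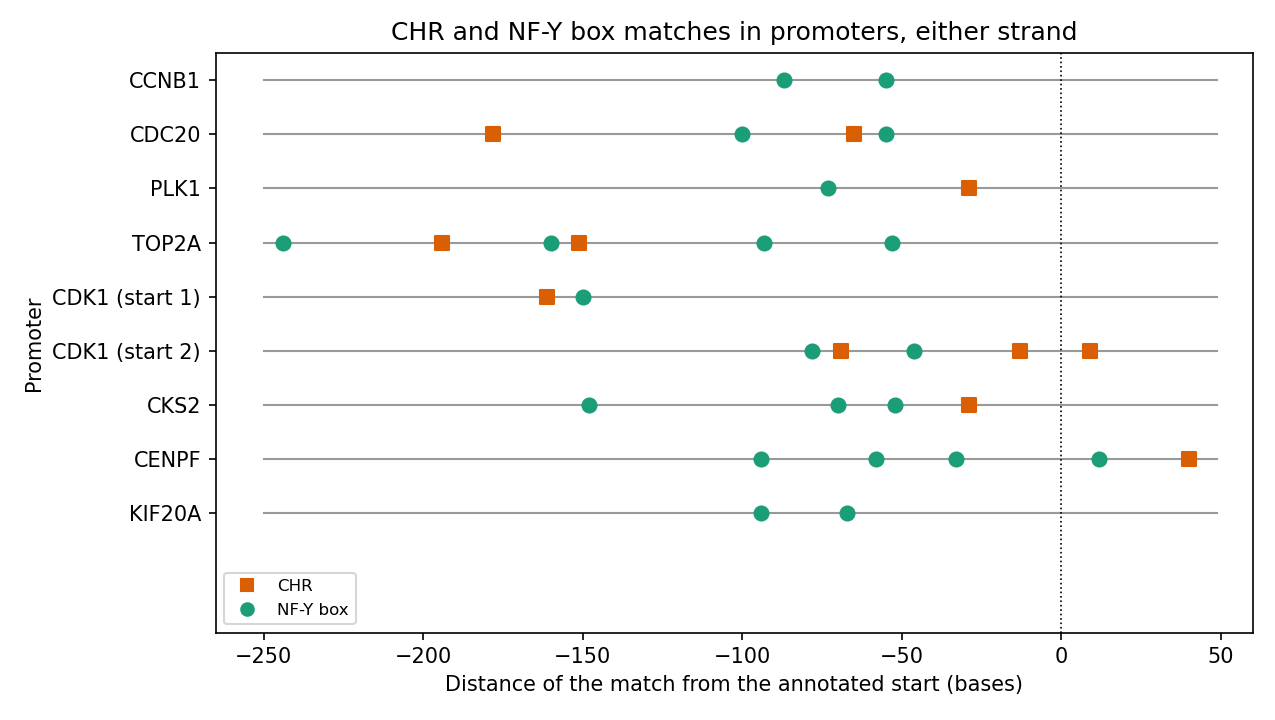
Distance in bases of each CHR match (squares) and each CCAAT box (NF-Y box, circles) from the annotated start, 1 line per promoter of 300 bases, on either strand. At least 1 CCAAT box lies within 100 bases upstream of the start in every promoter drawn except that of the upstream CDK1 start (start 1), whose only box lies 150 bases away. Further boxes lie 244 and 160 bases upstream in TOP2A, 148 upstream in CKS2 and 12 bases after the start in CENPF.

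The levels are a normalized signal that behaves like reads divided by gene length, so levels of different genes can be set side by side. The unit was read from short RNA genes, where 1 read was worth between 53.8 and 59.4 in level times base pairs, depending on the library. On that scale the 10 genes together rested on roughly 3997 reads under CGI-1746, 3838 under LU-102, 3856 under the combination, 784 under bortezomib and 4358 in mock, if each gene's longest coding transcript in GENCODE 29 is its length. The bortezomib library stands apart from the rest: 1971 of its 4202 genes had a level under 1, against 25 to 41 in the other 4 libraries. Its protein-coding levels summed to 12765, against 37994 in mock. Over all 4202 genes, however, its levels summed to 135512, against 99255 in mock. Protein-coding genes thus held a smaller part of its signal than in mock, and a lower level there need not be less RNA per cell. All 8 mesenchymal markers of the line were present, with VIM (vimentin) at 82.1 under CGI-1746, 82.3 under LU-102, 90.3 under both agents, 18.3 under bortezomib and 92.1 in mock. Of 7 luminal and epithelial genes 3 were listed, the keratins KRT18, KRT19 and KRT8, at 35.5, 12.1 and 2.02 in mock. KRT18 was there above every mesenchymal marker but VIM and LGALS1, the latter at 48.4. The epithelial genes EPCAM and CDH1 and the luminal genes ESR1 and GATA3 were sought by symbol and were not among the 4202 genes.

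CCNB1 (chromosome 5, 69167150 to 69178245), the cyclin of mitotic entry, had a level of 12.4 under CGI-1746, 12.0 under LU-102, 12.2 under both agents and 3.25 under bortezomib, against 14.7 in mock. The other 3 treated libraries lay close together and below mock, at 84.4%, 81.6% and 83.1% of its level in the same order, and bortezomib left 22.1%. CDK1 (chromosome 10, 60778331 to 60794852), the kinase that cyclin B activates, had 3.88 under CGI-1746, 3.41 under LU-102, 3.92 under both agents and 1.44 under bortezomib, against 4.28 in mock. It was the member with the lowest mock level, and LU-102 stood lowest of those 3 libraries, at 79.6% of mock. CKS2 (chromosome 9, 89311195 to 89316703), a small protein that docks CDK1 to its substrates, had 4.45 under CGI-1746, 4.38 under LU-102, 4.67 under both agents and 0.439 under bortezomib, against 4.79 in mock. The first 3 lay at 91.5% to 97.5% of mock. With bortezomib CKS2 rested on about 5 reads, against about 49 in mock, and it stood at 9.18% of mock on those few reads.

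PLK1 (chromosome 16, 23678889 to 23690367), the Polo kinase of spindle assembly, had 4.75 under CGI-1746, 5.05 under LU-102, 5.24 under both agents and 0.848 under bortezomib, against 5.15 in mock. Only the bortezomib library stood away from the others, at 16.5% of mock, and the remaining 3 spanned 92.1% to 102%. AURKA (chromosome 20, 56369390 to 56392215), the Aurora kinase of centrosome maturation, had 4.82 under CGI-1746, 5.12 under LU-102, 4.18 under both agents and 1.07 under bortezomib, against 5.70 in mock. Its level with the combination, 73.3% of mock, was the lowest of any of the 10 genes outside the bortezomib library.

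CDC20 (chromosome 1, 43358981 to 43363203), which activates the APC/C in mitosis, had 15.0 under CGI-1746, 15.5 under LU-102, 14.6 under both agents and 2.19 under bortezomib, against 14.8 in mock. The 4 libraries without bortezomib differed by at most 1.06-fold, while bortezomib left 14.8% of mock. UBE2C (chromosome 20, 45812644 to 45816952), the ubiquitin-conjugating enzyme that works with the APC/C, had 10.5 under CGI-1746, 11.1 under LU-102, 11.7 under both agents and 6.22 under bortezomib, against 11.1 in mock. At 56.3% of mock it kept the highest share of the 10 with bortezomib, and it ranked 1 of the 10 by level with bortezomib, against 4 in mock. GENCODE 29 and RefSeq together name 5 pseudogenes of UBE2C, 2 of AURKA and 1 of CDC20, and the treatment of shared reads was not given in the sources used here. Of these, UBE2CP5 and AURKAP1 have levels of their own in the deposited table. UBE2CP5 had 1.69 under CGI-1746, 2.15 under LU-102, 2.59 under both agents and 1.12 under bortezomib, against 2.09 in mock, the same order of libraries as UBE2C. AURKAP1 had 1.76 under CGI-1746, 2.21 under LU-102, 1.11 under both agents and 0.665 under bortezomib, against 2.09 in mock, so that the combination was its lowest library outside bortezomib, as for AURKA. Reads of each gene and its copy cannot be told apart here.

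TOP2A (chromosome 17, 40388525 to 40417896), the topoisomerase that untangles sister chromatids, had 13.6 under CGI-1746, 12.2 under LU-102, 12.8 under both agents and 1.87 under bortezomib, against 15.7 in mock. It had the highest mock level of the 10, and the other 3 treated libraries were lower, at 86.7%, 77.7% and 81.7% of it in that order. CENPF (chromosome 1, 214603195 to 214664571), a kinetochore protein, had 4.06 under CGI-1746, 3.79 under LU-102, 3.76 under both agents and 0.647 under bortezomib, against 4.29 in mock. KIF20A (chromosome 5, 138179112 to 138187723), a kinesin of cytokinesis, had 6.32 under CGI-1746, 6.14 under LU-102, 6.19 under both agents and 0.231 under bortezomib, against 6.41 in mock. Outside the bortezomib library KIF20A was the steadiest of the 10, within 1.04-fold, and with bortezomib it had the lowest share, 3.60% of mock on about 14 reads against about 346. In GENCODE 29, KIF20A overlaps BRD8 and CDC23 on the other strand and PLK1 overlaps ERN2. Use of strand in counting was not given in the sources used here, so reads of such pairs cannot be told apart.

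**Figure D2:**
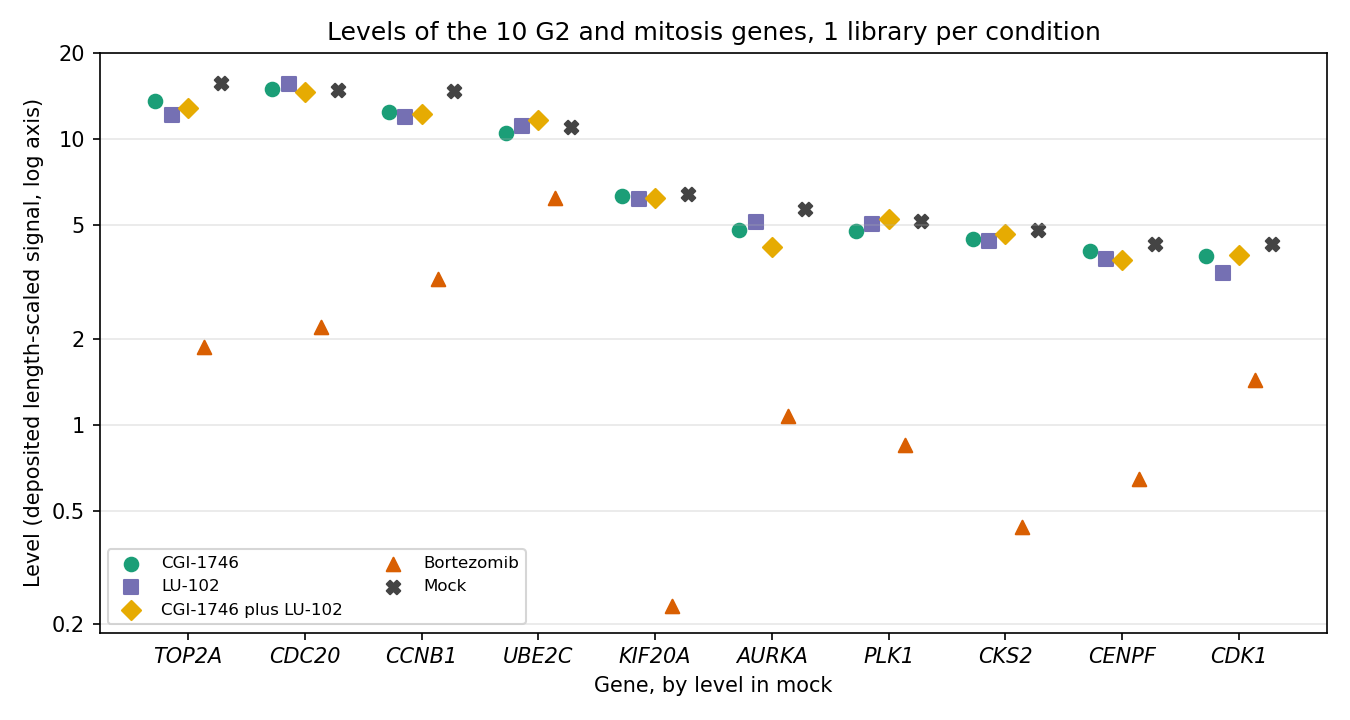
Level of each of the 10 genes in each of the 5 libraries, on a log axis, genes ordered by their mock level. In levels as deposited the bortezomib library (triangles) is the lowest of the 5 for every gene, although UBE2C is above mock with median-of-ratios scaling, from 0.231 for KIF20A to 6.22 for UBE2C, and the other 4 libraries lie close to each other.

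Bortezomib against mock is the comparison in which these genes differed most. All 10 were lower with bortezomib in the levels as deposited, UBE2C alone being higher with median-of-ratios scaling. Their median was 15.8% of the mock level, while the median over all 4202 genes was 32.4%. By that plain ratio KIF20A was lower than all but 0.476% of genes, CKS2 than all but 3.86% and TOP2A than all but 7.31%. CDC20 stood at percentile 11.8, CENPF at 12.2, PLK1 at 15.1, AURKA at 19.9 and CCNB1 at 27.9. CDK1 at percentile 52.3 and UBE2C at 77.2 were within or above the middle of all genes. So 8 of the 10 lay below the all-gene median of the plain ratio and 2 above it.

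In that order most neighbours could not be separated at this depth. The gap of CCNB1 to CDK1 was 0.60 on the log2 scale, with a rough counting SD of 0.27, and that of CDK1 to UBE2C was 0.74, with an SD of 0.29. Each of the other 7 gaps was under 2 such SDs, the one between KIF20A and CKS2 included, at 1.35 with an SD of 0.78. These SDs come from the rough reads alone and hold no variation between cultures.

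The scale used across genes was log2 of level plus 1, for genes that reached a level of 1 in one library or the other. On it the 10 had a median of -1.81, against -0.98 for all 4189 genes compared. This scale shrinks the ratios of low genes, and among genes with a level of 5 or more in one library or the other the all-gene median was -1.43, with 8 of the 10 below it. Of the 10, 9 were 2-fold or more lower, where 48.1% of all genes were, the exception being UBE2C at -0.74. PLK1, CKS2, CENPF and KIF20A were under 1 with bortezomib, so they entered through mock alone. The count changed with the scaling: with median-of-ratios scaling 8 of the 10 and 727 genes were 2-fold or more lower and 208 genes higher, against 2015 lower and 58 higher as deposited. That scaling moved the all-gene median to -0.44. Relative to the all-gene median, CDC20, TOP2A, CKS2 and KIF20A were 2-fold or more lower, with 328 genes lower and 315 higher in all. UBE2C lay above 0 under both of these scalings, so its direction depends on the scaling. In total 9 of the 10 were below the all-gene median on this scale, which holds 50% of genes by construction.

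As a share of all protein-coding levels, the 10 genes made up 0.143% with bortezomib, against 0.229% in mock. This share does not depend on the library's scaling, and with bortezomib it was 62.4% of its mock value. The same figure was 64.4% for the 8 mesenchymal genes of the line and 61.2% for its 3 keratins, both lower than mock as well. In the authors' deposited table none of the 10 had an FDR under 0.05 in any of the 6 comparisons there, the lowest being 0.0901 for TOP2A with bortezomib against mock, a comparison in which 5.69% of genes did. An unadjusted p under 0.05 in the authors' deposited table was held by 3 of the 10 and by 536 genes in that comparison, and by none of the 10 in the other 5. The p-values of the authors' deposited table equal, to within 2.60e-05, a Poisson test that takes the length-scaled levels for counts, and they hold no replicate error.

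**Figure D3:**
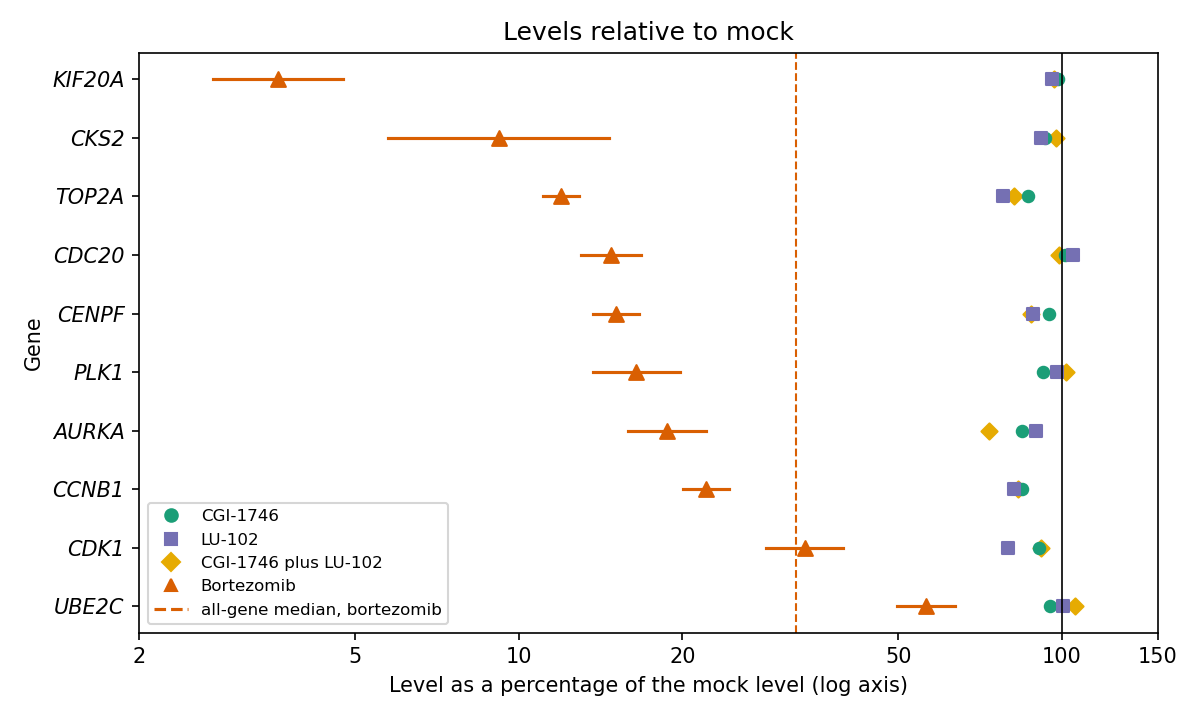
Level as a percentage of the mock level for each gene and treatment, on a log axis, with bars of 1 rough counting SD on the bortezomib values and a dashed line at the all-gene median of the bortezomib library (32.4%). Bortezomib values run from 3.60% for KIF20A to 56.3% for UBE2C (above mock with median-of-ratios scaling), and those of the other 3 treatments from 73.3% to 106%.

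CGI-1746 against mock gave small differences. On the log2 scale the 10 genes had a median of -0.09, against -0.02 for all 4186 genes, and 9 of the 10 were below the all-gene median (50% of genes). None passed 2-fold, which 0.167% of genes did. CCNB1 at -0.23, AURKA at -0.20 and TOP2A at -0.19 were at least 1.1-fold lower, or 3 of the 10 where 12.6% of genes were, and none was 1.1-fold higher, where 10.6% were. The same 3 were so with median-of-ratios scaling and relative to the all-gene median, although over all genes 528 were lower and 444 higher as deposited, against 320 and 571 with median-of-ratios scaling and 409 and 535 relative to the median. CDC20 was the highest, at 0.02. Of the 10, 9 were below 0 as deposited, a number that median-of-ratios scaling lowered to 8. In rough counting SDs of the plain ratio only CCNB1 and TOP2A lay more than 2 from mock.

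With LU-102 the median was -0.12, against -0.06 for all 4193 genes, and 6 of the 10 were below the all-gene median. TOP2A at -0.34, CCNB1 at -0.27, CDK1 at -0.26 and CENPF at -0.14 were at least 1.1-fold lower, or 4 of the 10 where 27.7% of genes were, and none was 1.1-fold higher, where 11.7% were. CENPF was not among them with median-of-ratios scaling or relative to the all-gene median. Over all genes 1163 were lower and 492 higher as deposited, against 818 and 597 with median-of-ratios scaling and 577 and 859 relative to the median. None passed 2-fold (0.0715% of genes). TOP2A was lower than all but 1.07% of genes on this scale and than all but 3.43% by the plain ratio. CDC20 at 0.06 and UBE2C at 0.01 were above 0, and with median-of-ratios scaling 7 of the 10 were below 0 in place of 8. In the levels as deposited CCNB1, TOP2A and CENPF lay more than 2 rough counting SDs from mock.

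With the combination the median was -0.07, against 0.03 for all 4189 genes, and 9 of the 10 were below the all-gene median. AURKA at -0.37, TOP2A at -0.27, CCNB1 at -0.25 and CENPF at -0.15 were at least 1.1-fold lower, or 4 of the 10 where 11.3% of genes were, and none was 1.1-fold higher, where 26.2% were. CDK1 joined them with median-of-ratios scaling, which moved all genes to a median of -0.04 and the genes at least 1.1-fold lower and higher to 1053 and 551, against 473 and 1098 as deposited and 693 and 881 relative to the median. None passed 2-fold (0.215% of genes). AURKA was lower than all but 0.955% of genes on this scale and than all but 1.31% by the plain ratio. The highest was UBE2C at 0.07, which was below 0 with median-of-ratios scaling, as were all 10. In the levels as deposited AURKA, TOP2A, CCNB1 and CENPF lay more than 2 rough counting SDs from mock. CCNB1 and TOP2A were at least 1.1-fold lower than mock in each of these 3 libraries, which share the mock library.

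**Figure D4:**
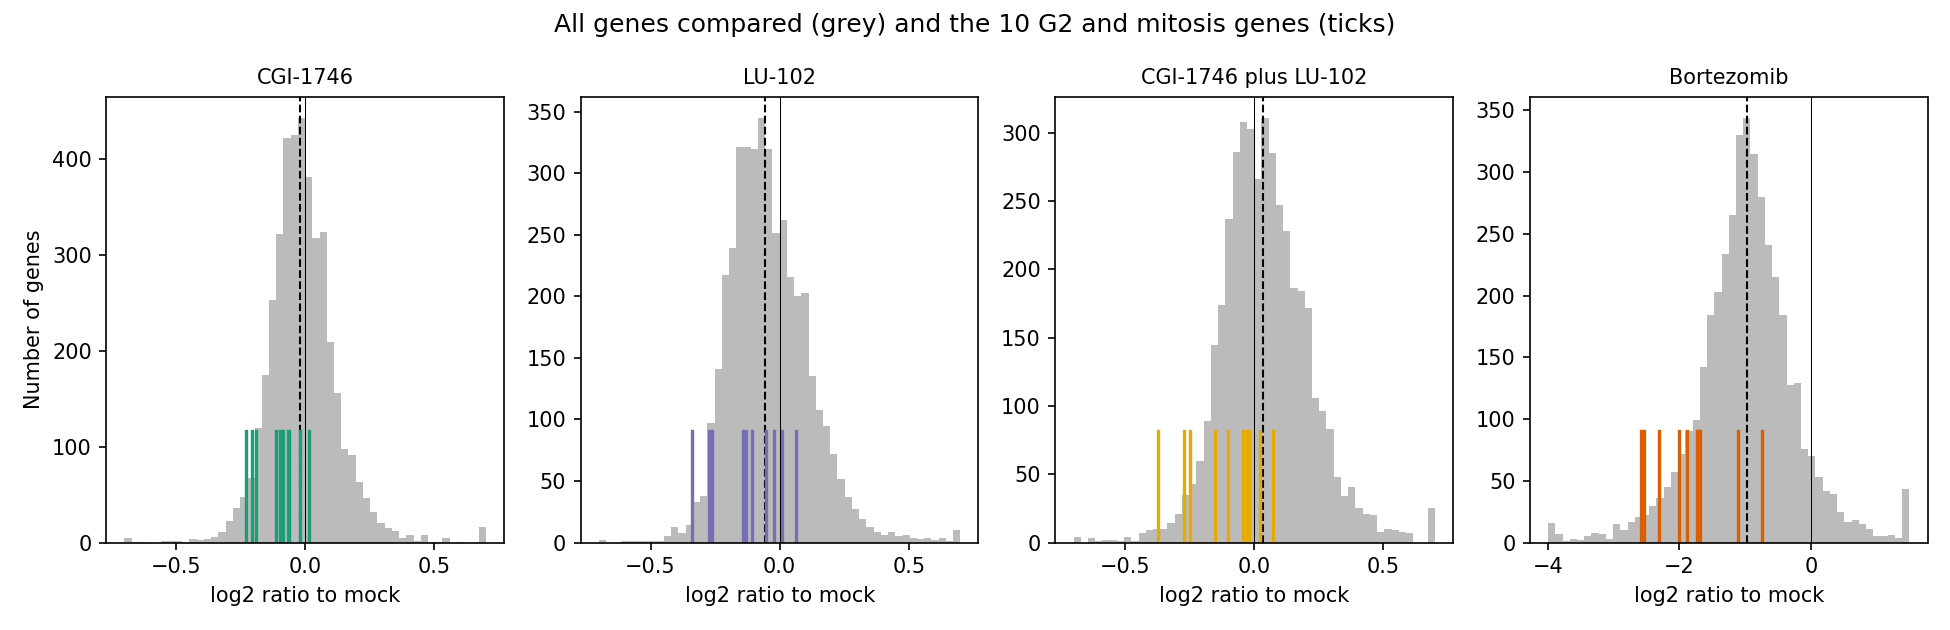
Number of genes (grey bars) by log2 ratio to mock of level plus 1 in each treatment, with values beyond the axis gathered in the end bars, the all-gene median (dashed) and the 10 genes (coloured ticks). In the 3 panels without bortezomib the ticks run from the lower tail, where TOP2A stands at -0.34 with LU-102 and AURKA at -0.37 with the combination, to just above 0, and they lie largely left of its median of -0.98 with bortezomib.

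The treated libraries were also set against each other. In the combination against CGI-1746 the 10 genes had a median of -0.02 and all genes 0.04, with AURKA at -0.17 the one at least 1.1-fold lower (4.44% of genes) and UBE2C at 0.14 the one higher (21.4%). With median-of-ratios scaling the same comparison had 6 of the 10 lower and 877 genes lower against 293 higher, where 186 were lower and 896 higher as deposited and 357 and 602 relative to the all-gene median. It moved the all-gene median to -0.06, and UBE2C was no longer among the higher genes. In the combination against LU-102 the median was 0.03 and that of all genes 0.08, with AURKA at -0.24 lower (4.75% of genes) and CDK1 at 0.16 higher (29.9%). With median-of-ratios scaling CDC20 and AURKA were lower, none was higher, and 515 genes were lower against 310 higher, where 199 were lower and 1252 higher as deposited and 436 and 454 relative to the all-gene median. The all-gene median was then -0.02, and 9 of the 10 were below 0, against 3 as deposited. In both comparisons no gene of the 10 lay more than 2 rough counting SDs from the other library in the levels as deposited. Such distances were not taken with median-of-ratios scaling, which lowers the combination relative to both single agents. In CGI-1746 against LU-102 the median was 0.03, against 0.04 for all genes. TOP2A and CDK1, both at 0.15, were 1.1-fold higher with CGI-1746 (17% of genes) and none was lower (8.87%), but relative to the all-gene median neither passed, and 548 genes were lower and 406 higher, against 372 and 715 as deposited. TOP2A alone lay more than 2 rough counting SDs from the other library.

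Against bortezomib the combination was 2-fold or more higher for 9 of the 10 genes (49.4% of all genes) and LU-102 for 8 (43.1%). The member medians were 1.70 and 1.66, against 0.99 and 0.91 for all genes. UBE2C was under 2-fold in both, at 0.81 and 0.75, and CDK1 stood at 1.01 and 0.85. With median-of-ratios scaling 5 of the 10 were 2-fold or more higher in the combination and 6 in LU-102, and UBE2C was below 0 in both. All genes then had medians of 0.38 and 0.40, with 192 lower and 609 higher than bortezomib in the combination and 183 and 657 in LU-102, against 53 and 2073 and 57 and 1805 as deposited. Relative to the all-gene median, 254 were lower and 342 higher in the combination and 269 and 333 in LU-102. Both comparisons use the same bortezomib library.

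Departure from additivity, the log2 value of the combination less both single agents plus mock, had a median of 0.14 over the 10 genes and 0.10 over 4197 genes. It ran from -0.10 for CDC20 to 0.27 for CDK1, with TOP2A at 0.26 and CCNB1 at 0.25. Of the 10, 6 lay above the all-gene median, which 50% of genes do, 5 were at least 1.1-fold higher (38.8% of genes) and none 1.1-fold lower (6.46%). With median-of-ratios scaling the member median was -0.02, so it has no firm sign.

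Of 69 other genes of G2 and mitosis, 48 were listed. At least 1.1-fold lower were 19 of the 48 under CGI-1746, 27 under LU-102 and 20 under both agents, and 2 were higher in each. Over all genes 12.6%, 27.7% and 11.3% were lower in the same order, and 10.6%, 11.7% and 26.2% higher. With median-of-ratios scaling 15, 24 and 31 of the 48 were lower, where 7.64%, 19.5% and 25.1% of all genes were. The S phase and replication genes, of which 31 of 46 were listed, had 1 lower and none higher under CGI-1746, 7 lower and 4 higher under LU-102, and 1 lower and 8 higher under both agents. With median-of-ratios scaling those counts were 0 and 4, 4 and 6, and 6 and 3. The median of the 48 was -0.11 under CGI-1746, -0.16 under LU-102 and -0.11 under both agents, while that of the S phase genes stood at -0.02, -0.07 and 0.03 beside all-gene medians of -0.02, -0.06 and 0.03. No gene of either list passed 2-fold outside the bortezomib library. These lists were drawn up with earlier results of these data known, and the difference between them was not tested.

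With bortezomib 39 of the 48 other G2 and mitosis genes were 2-fold or more lower and none higher, where 48.1% of all genes were lower, and their median was 20.3% of mock. With median-of-ratios scaling 21 were lower and none higher, where 17.4% of all genes were lower. Relative to the all-gene median 8 were lower, where 7.83% of all genes were. CCNA2, the cyclin of S phase and G2, had 17.2 under CGI-1746, 15.8 under LU-102, 15.2 under both agents and 2.52 under bortezomib, against 19.8 in mock. It was thus low with bortezomib and highest in mock, as was CCNB2, the other B-type cyclin of mitosis, at 1.95, 1.83, 2.03 and 0.146 in the same libraries, against 2.18 in mock. On the scale of log2 of level plus 1, which favours genes of high level, the lowest with bortezomib were MKI67, a coat protein of mitotic chromosomes, at -2.69, CCNA2 at -2.56 and KPNA2, a nuclear import receptor, at -2.44. By the plain ratio these stood at 11.9%, 12.7% and 15.5% of mock, and CDCA3 at 5.19%, DLGAP5 at 5.47%, BUB1 at 6.46% and CCNB2 at 6.71% were the lowest of the 48, the first 3 being named after their values were seen. With bortezomib CDCA3, DLGAP5, BUB1 and CCNB2 had levels of only 0.238, 0.111, 0.295 and 0.146, so their ratios and order are rough. CDC25B, a phosphatase that activates CDK1, had a level of 3.82 with bortezomib, against 3.77 in mock, and PKMYT1, a kinase that inhibits CDK1, 1.25 against 1.28. SPC24, a kinetochore protein, was next at -0.55. With median-of-ratios scaling CDC25B stood at 198% of mock, PKMYT1 at 191% and SPC24 at 116%, so that their direction depends on the scaling.

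Of the S phase genes 17 of 31 were 2-fold or more lower with bortezomib, or 54.8% beside 48.1% of all genes, and their median was 23.3% of mock. With median-of-ratios scaling 7 were lower (22.6%, beside 17.4% of all genes). On the log2 scale TYMS, thymidylate synthase, had -2.61, MCM7 -2.11 and MCM3, both of the replicative helicase, -1.87. TK1, thymidine kinase, had -0.44, GINS1 -0.40 and ORC6 of the origin recognition complex -0.34 on it. That scale favours genes of high level. By the plain ratio TYMS stood at 11.6% of mock, MCM7 at 19.9% and MCM3 at 23.0%. RFC5, named after its value was seen, was the lowest of the 31 by that ratio, at 11.4%, on a level of only 0.231 with bortezomib. With median-of-ratios scaling TK1, GINS1 and ORC6 stood above mock, at 134%, 118% and 130% of its level. Of 16 regulators of the promoters described, 7 were listed. On the log2 scale all 7 were below the all-gene median with bortezomib, which 50% of genes are, RBBP4 and TFDP1 only just. By the plain ratio RBBP4, at 34.4% of mock, was above the all-gene median of 32.4%. FOXM1, which activates G2 and mitosis genes, had 4.70 under CGI-1746, 4.76 under LU-102, 4.86 under both agents and 0.416 under bortezomib, against 5.14 in mock. At 8.11% of mock with bortezomib FOXM1 was lower than each of the 10 genes described but KIF20A, while the other 3 treatments had it at most 0.11 below mock on the log2 scale. MYBL2 was sought by symbol and was not among the genes listed.

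**Figure D5:**
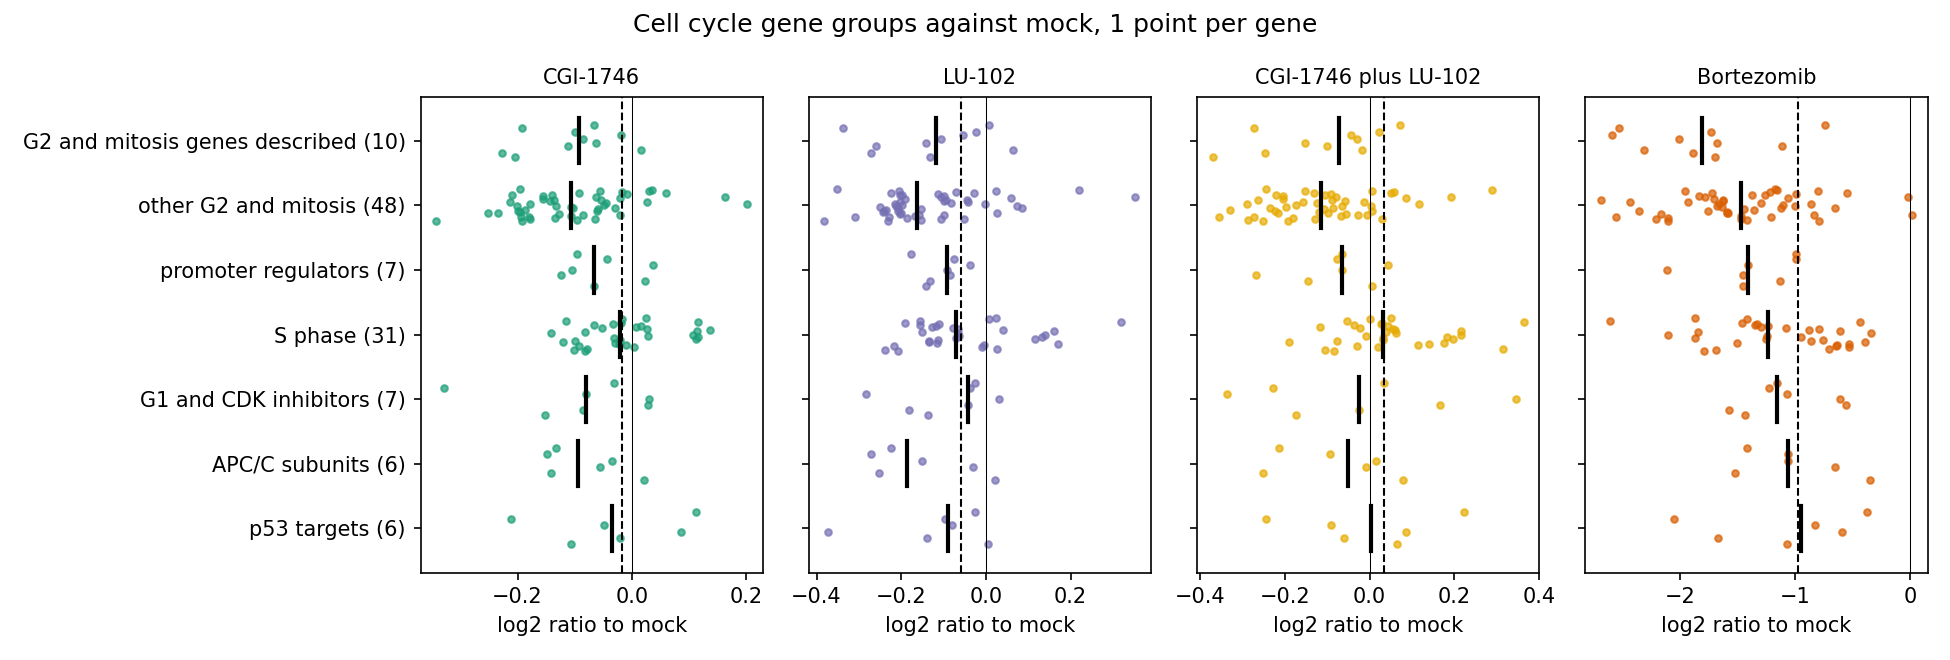
Log2 ratio to mock of level plus 1 for each listed gene (points) of 7 cell cycle groups in each treatment, with the group median (black bar) and the all-gene median (dashed line). With bortezomib the median of the 10 genes described is the lowest of the 7 groups at -1.81, and that of p53 targets, at -0.95, lies nearest to the all-gene median of -0.98.

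The genes most like the group were sought among 1331 others with a mock level of at least 5, by Euclidean distance of their 4 log2 ratios to mock from the median profile of the 10. The nearest were MEIS3P1, a pseudogene, STARD7, a lipid transfer protein, PYGO2, a Wnt pathway co-activator, TRAM2, a protein of the endoplasmic reticulum, and DHX9, an RNA helicase, at distances of 0.03 to 0.06 on the log2 scale. The 10 genes themselves lay 0.15 (PLK1) to 1.09 (UBE2C) from their own median. Each of the 5 nearest stood between -1.83 and -1.79 with bortezomib and between -0.17 and -0.03 in the other treatments. All 5 were closer to that median than any of the 10. They were picked from 1331 genes by that same distance, so this was to be foreseen and says nothing about the 10.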

How the data were processed

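A service company sequenced total RNA from 5 cultures of MDA-MB-231, 1 library per condition. The submitters' processing notes name Partek and hg38, while the aligner, annotation, filter, strand or version was not given in the sources used here. As for values, the authors deposited 1 table of normalized signal (LSMean, per the file headers) and, for 6 comparisons, a ratio, a p-value and an FDR. The 5 levels of a listed gene summed to at least 5.04. Repeated columns (7) were identical and not used.

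Signals were compared as log2(level + 1) for genes that reached a level of 1 in one library or the other, and as plain ratios. Because a condition has 1 library, no test was run, and values stand beside those of all genes compared. Fold thresholds were 2 and 1.1. The value of a read came from short RNA genes, counted in steps of 0.5 reads. Within 0.1 of a whole step lay 18 of 19 genes with bortezomib and 27 of 29 to 30 of 30 in the other libraries. The value was the one that fitted these same genes best. Rough reads used the longest coding transcript of GENCODE 29, and counting SDs cover counting error only. Of the 4202 symbols 4126 matched RefSeq on GRCh38.p14, which gave coordinates and promoters.

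The members and lists were chosen with earlier results of these data known. Named are all 10 members, listed genes past 2-fold outside bortezomib, the 3 lowest and 3 highest of a list with bortezomib, 6 regulators and cyclins where listed, and the 5 nearest by distance. Genes named from luminal and mesenchymal lists describe the line. Those lists too were drawn up with earlier results known, so they cannot check its identity. Alternatives were pseudocounts of 0.1 and 5, other filters, median-of-ratios scaling from the 445 genes that reached a level of 5 in all libraries, centring on the all-gene median and protein-coding genes alone. The ratio and count functions were tested on simulated data. Values were computed in Python 3.11.15 (pandas 2.3.3, numpy 2.4.6) and drawn with matplotlib 3.10.9.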

Additional observations from a re-analysis of the deposited data

How the results depend on the processing

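No paired analysis was possible because each condition has 1 library. No difference has a replicate check, and CKS2 and KIF20A rest on about 5 and 14 reads with bortezomib. Of 40 alternative values of member medians 24 kept their sign and moved by less than a rough counting SD typical of a single gene. None of the 24 was of a comparison with bortezomib, where all 12 alternatives moved by more. In the other comparisons that SD was larger than the member median itself, so the mark was easily met. The combination against CGI-1746, for example, counted among the 24 while going from -0.02 to -0.15 with median-of-ratios scaling. Of 27 alternative counts of members below the all-gene median, 23 stayed within 1.5 times. The cause of the changes below was not tested.

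The member median with bortezomib against mock was -2.51 with a pseudocount of 0.1, -0.83 with one of 5, -1.17 with median-of-ratios scaling and -0.83 relative to the all-gene median. In the same order that of the combination against bortezomib was 2.43, 0.82, 1.03 and 0.70, and that of LU-102 against bortezomib 2.41, 0.78, 1.12 and 0.75. The sign turned for the combination against LU-102, at -0.085 with median-of-ratios scaling and -0.051 relative to the all-gene median, for CGI-1746 against LU-102, at -0.0095 relative to the all-gene median, and for the departure from additivity, at -0.016 with median-of-ratios scaling.

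The count of members below the all-gene median for the combination against bortezomib, 1, became 3 with a level of at least 5, 0 with a pseudocount of 5 and 2 with protein-coding genes alone, and for LU-102 against bortezomib 2 became 0 with a pseudocount of 5.

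Genes past 2-fold with bortezomib against mock numbered 2073, and 1016 with a level of at least 5, 525 with a pseudocount of 5 and 935 with median-of-ratios scaling. In the same order the combination against bortezomib had 2126, 1061, 548 and 801, and LU-102 against bortezomib 1862, 947, 481 and 840. With a pseudocount of 5, CGI-1746 against mock had 1 in place of 7, LU-102 against mock 0 in place of 3, the combination against mock 3 in place of 9, the combination against LU-102 2 in place of 6, and CGI-1746 against LU-102 0 in place of 4. With a level of at least 5 LU-102 against mock had 1 and CGI-1746 against LU-102 had 0. The combination against CGI-1746 had 4, and 2 with a level of at least 5, 1 with a pseudocount of 5 and 2 with median-of-ratios scaling.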

Other observations

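Genes of other cell cycle steps were set beside the G2 and mitosis genes, with no test of the difference. CCND1, the G1 cyclin, had a level of 22.4 with bortezomib, against 62.3 in mock, and CDK4, its kinase, 11.2 against 17.0. CDKN1A, which encodes the CDK inhibitor p21, had 7.21 under CGI-1746, 7.22 under LU-102, 9.23 under both agents and 4.26 under bortezomib, against 7.05 in mock. It was thus highest with the combination, 0.35 above mock on the log2 scale, where all genes had a median of 0.03. Of 15 genes of G1 cyclins, their kinases and CDK inhibitors 7 were listed. Their summed share of protein-coding levels was 0.338% with bortezomib, against 0.281% in mock. CCND1 alone made up 22.4 of the summed level of 43.2 with bortezomib. The median of the 7 was 28.6% of mock, against 32.4% for all genes, so the higher share does not describe the typical gene of the list.

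Of 15 APC/C subunits 6 were listed, at a median of 17.8% of mock with bortezomib, from CDC27 at 11.7% to ANAPC11 at 62.6%. ANAPC13 had 0.459 with bortezomib, against 3.19 in mock, and ANAPC16 0.552 against 1.44, while CDC23 and ANAPC5 each stood at -1.06 on the log2 scale. All 6 had mock levels between 1.34 and 3.19. Of 19 p53 target genes 6 were listed, at a median of 36.9% of mock with bortezomib, against 32.4% for all genes. On the log2 scale PLK2 at -2.05, CCNG1 at -1.67 and BAX at -1.08 were the lowest and MDM2 at -0.83, GADD45A at -0.59 and PLK3 at -0.38 the highest, and the plain ratio gave the same 3 lowest. GADD45A was 0.37 below mock with LU-102 and 0.09 above it with CGI-1746 and with the combination.

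Among the regulators of these promoters other than FOXM1, E2F8, E2F4, E2F7, TFDP1 and RBBP4 had log2 ratios of -1.45, -1.45, -1.13, -0.996 and -0.994 with bortezomib. By the plain ratio E2F8 stood at 10.3% of mock and E2F4 at 30.4%. NFYA, a subunit of NF-Y and the remaining listed regulator, stood at 15.8% of mock and was named after its value was seen. In the G1 list CDK2, CCND1 and CDKN2C had -1.57, -1.44 and -1.23 on the log2 scale, and CDK4, CDKN1A and CDKN1B -0.56, -0.61 and -1.07. The pseudocount changes this order: by the plain ratio CDKN2D, named after its value was seen, was lowest at 19.5% of mock, followed by CDKN2C at 22.5% and CDKN1B at 22.8%, with CDK2 at 28.6% and CCND1 at 35.9%. With median-of-ratios scaling CDK4, CDKN1A, ANAPC11, PLK3 and GADD45A stood above mock with bortezomib, at 129%, 118%, 122%, 112% and 120% of its level.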
